A study of Saccharomyces cerevisiae with 4 samples.

Results

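The 10 genes described here serve the uptake and breakdown of proline, allantoin and urea in baker's yeast, Saccharomyces cerevisiae. They are PUT1, PUT2, PUT3, PUT4, DAL1, DAL2, DAL3, DAL4, DAL5 and DUR3. They were chosen by gene function, with the AAE13 over ccdB log2 ratios of the same arrays already known. Those ratios are therefore given as a description, without a p-value for any of the 10 genes. Each gene was matched by its symbol to 1 probe, and all 10 had a value on all 4 arrays. They are 10 of the 4072 named genes that the table measured on at least 3 arrays.

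Yeast prefers ammonium and glutamine as nitrogen sources and represses the genes for poorer sources while these are present, a regulation called nitrogen catabolite repression. The GATA factors Gln3 and Gat1 activate such genes, the GATA factors Dal80 and Gzf3 repress them, and Ure2 holds Gln3 in the cytoplasm. Proline is taken up by permeases and oxidised in mitochondria to glutamate. Allantoin, a product of purine breakdown, is cut stepwise to urea and glyoxylate, and urea is then split into ammonia and carbon dioxide.

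The study compared a transgenic strain (pAG305GPD-AAE13) with a control strain (pAG305GPD-ccdB). AAE13 is a plant malonyl-CoA synthetase, placed under the constitutive GPD promoter in a LEU2-marked integrating vector, and the control strain carried the same kind of vector with the ccdB cassette. Both strains grew at 30 °C in SD drop-out medium, were given 0.2 mM malonate at an OD600 of 0.1, and were sampled at mid-log phase. Neither the nitrogen source of the medium nor the number of transformants behind the 4 cultures of each strain is given in the sources used here. Each of the 4 two-colour arrays paired 1 AAE13 culture with 1 ccdB culture. Arrays 1 and 3 carried the AAE13 sample in Cy5, and the dyes were swapped on arrays 2 and 4.

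All values below are log2 ratios with the array median set to 0, so a gene at 0 behaved like the typical probe. The base of the logarithm was inferred from the range of the values, and fold sizes assume base 2. No source used here states which strain is on top of the ratio. Arrays of opposite dye orientation correlated at 0.576 on average over all probes, and those of the same orientation at 0.693. As the first value was above 0, all arrays were read in the same direction. AAE13 over ccdB is the likely direction, on the basis of the series title and design text alone. The sample titles name AAE13 first on arrays 1 and 3 but ccdB first on arrays 2 and 4, each time the strain in Cy5. They do not say whether the ratios were turned. The opposite direction would turn every sign below, and ratios never turned for the dye swap would make the shared signs a dye effect. The number of arrays limits the precision, spot intensities were not analysed here, and signal over background is unknown. In cell populations such as these, a lower ratio cannot be split into fewer expressing cells and less RNA per cell.

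**Figure D1:**
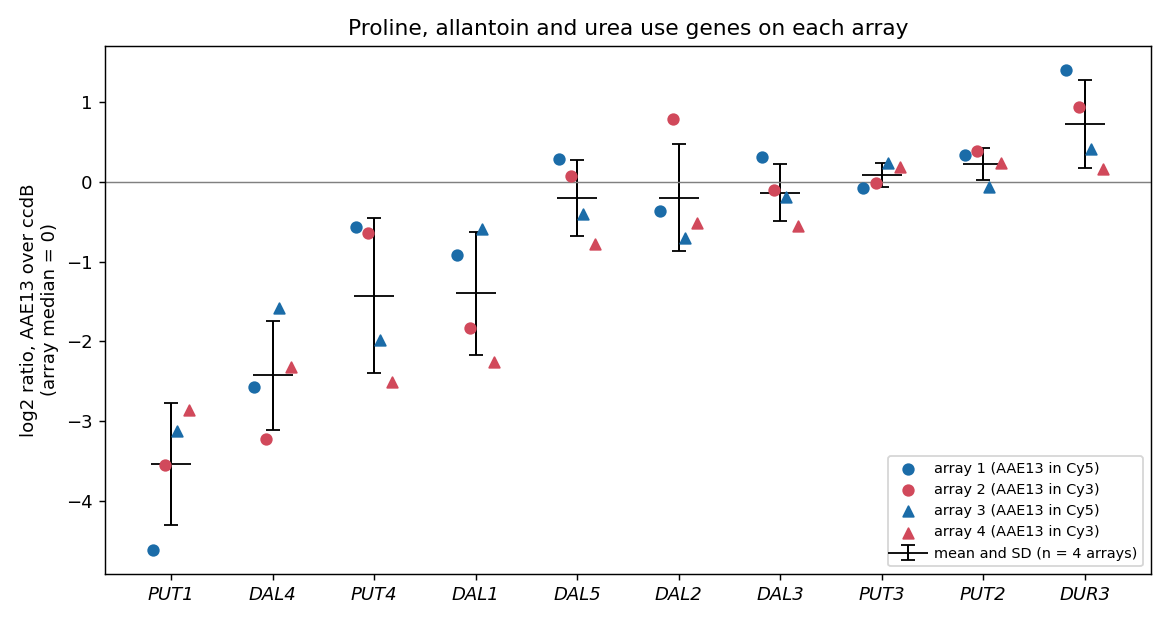
Log2 ratio of AAE13 over ccdB (vertical axis, array median at 0) of the 10 genes on each array, ordered by their mean. Circles are arrays 1 and 2, triangles arrays 3 and 4, blue AAE13 in Cy5, red AAE13 in Cy3, and the black marks are the mean and SD over 4 arrays. PUT1, DAL4, PUT4 and DAL1 lie below 0 on every array, and DUR3 lies above 0 on every array.

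Among the proline genes, the transcripts of the first enzyme and of the specific permease were lower in the AAE13 strain, and those of the next enzyme and of the activator were close to the array median. PUT1 encodes proline oxidase, the mitochondrial enzyme that opens proline breakdown. Its log2 ratios were -4.61, -3.55, -3.12 and -2.86 on arrays 1 to 4. It was far below 0 on every array, and its mean of -3.53 ± 0.77 (SD, n = 4) corresponds to an 11.6-fold lower level. PUT1 ranked 5 from the bottom of all named genes by this mean.

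PUT4 encodes the high-affinity proline permease of the plasma membrane. Its log2 ratios were -0.57, -0.64, -1.98 and -2.51 on arrays 1 to 4. They were all below 0, but those on arrays 3 and 4 were much lower than those on arrays 1 and 2. The mean of -1.43 ± 0.97 (SD, n = 4) is a 2.69-fold lower level.

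PUT2 encodes the mitochondrial dehydrogenase that carries the product of Put1 on to glutamate. Its log2 ratios were 0.33, 0.38, -0.06 and 0.235 on arrays 1 to 4, with a mean of 0.22 ± 0.20 (SD, n = 4). It thus lay at or slightly above the array median, on the other side of 0 from PUT1, the enzyme before it in the pathway. PUT3 encodes the zinc-cluster factor that activates PUT1 and PUT2 when proline is present. Its ratios were -0.08, -0.02, 0.23 and 0.18, with a mean of 0.08 ± 0.15 (SD, n = 4), and changed sign between arrays.

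Among the allantoin genes, the permease of the pathway and its first enzyme were lower. The later enzymes had means near 0, with arrays on both sides of it. DAL4 encodes the allantoin permease. Its log2 ratios were -2.57, -3.23, -1.58 and -2.32 on arrays 1 to 4. All were well below 0, and the mean of -2.42 ± 0.68 (SD, n = 4) is a 5.36-fold lower level, at rank 21 from the bottom of all named genes.

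DAL1 encodes allantoinase, which opens the allantoin ring. Its log2 ratios were -0.92, -1.83, -0.59 and -2.25 on arrays 1 to 4, with a mean of -1.40 ± 0.77 (SD, n = 4) or a 2.64-fold lower level. They were below 0 on every array and lowest on the arrays with AAE13 in Cy3.

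DAL2 encodes allantoicase, which acts next in the pathway. It stood on arrays 1 to 4 at log2 ratios of -0.37, 0.78, -0.70 and -0.52 and a mean of -0.20 ± 0.67 (SD, n = 4), with array 2 standing on the other side of 0. Without array 2 the mean of DAL2 was -0.53. DAL3 encodes ureidoglycolate lyase, which releases urea and glyoxylate. It had ratios of 0.30, -0.11, -0.19 and -0.56 and a mean of -0.14 ± 0.35 (SD, n = 4).

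DAL5 encodes the permease for allantoate, an intermediate of the pathway. Its log2 ratios of 0.29, 0.07, -0.41 and -0.78 on arrays 1 to 4 lay on both sides of 0, with a mean of -0.21 ± 0.48 (SD, n = 4). DUR3 encodes the plasma membrane transporter for urea, which also carries polyamines. It had ratios of 1.40, 0.93, 0.41 and 0.16, all above 0, and a mean of 0.72 ± 0.55 (SD, n = 4), a 1.65-fold higher level. It was the only one of the 10 genes above 0 on all 4 arrays.

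The 4 genes below 0 on every array were the only ones of the 10 past an adjusted p of 0.05 in limma's fit over all named genes, and none of the 10 was past it on the higher side. In that fit 11.8% of all named genes were called lower, 13.0% higher and 24.8% in either direction. That is 529 genes higher and 482 lower, and with the arrays not centred it was 744 higher and 55 lower. Since the 10 genes were chosen with these ratios known, nothing is read from this count. The count was 2 without array 4, PUT1 and DAL4, with PUT4 and DAL1 lost, beside 427 of all 4072 named genes. With the arrays not centred it was 3, PUT1 and DAL4 lower and DUR3 higher, beside 799 of all named genes. With the arrays weighted in limma it was 5, with DUR3 added on the higher side, beside 1048 of all named genes. Nothing is read from these counts either. Leaving out each array in turn, the mean of PUT1 ran from -3.76 to -3.18, that of DAL4 from -2.70 to -2.15, that of PUT4 from -1.71 to -1.06 and that of DAL1 from -1.67 to -1.11. With the arrays not centred, the median of all named genes moved from -0.02 to 0.58. The means were then -2.93 for PUT1, -1.82 for DAL4, -0.82 for PUT4, -0.79 for DAL1 and 1.33 for DUR3, and those of DAL2, DAL3 and DAL5 lay above 0, at 0.41, 0.47 and 0.40.

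The 10 genes did not share 1 pattern. Their median log2 ratio was -0.20, against -0.02 over all named genes, and on arrays 1 to 4 it was -0.22, -0.06, -0.50 and -0.67. The median of their SD values was 0.61, against 0.39 over all named genes. In the order of the means, DAL1 was below DAL5 on 4 of 4 arrays, by 1.19 ± 0.73 (SD), and PUT1 was below DAL4 on 4 of 4 arrays, by 1.11 ± 0.82. PUT2 and DUR3 differed by 0.50 ± 0.47, with DUR3 higher on 3 of 4 arrays. Each of the other neighbours in that order differed by less than the SD of the difference, DAL4 and PUT4 by 1.00 ± 1.52 and PUT4 and DAL1 by 0.03 ± 1.09.

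**Figure D2:**
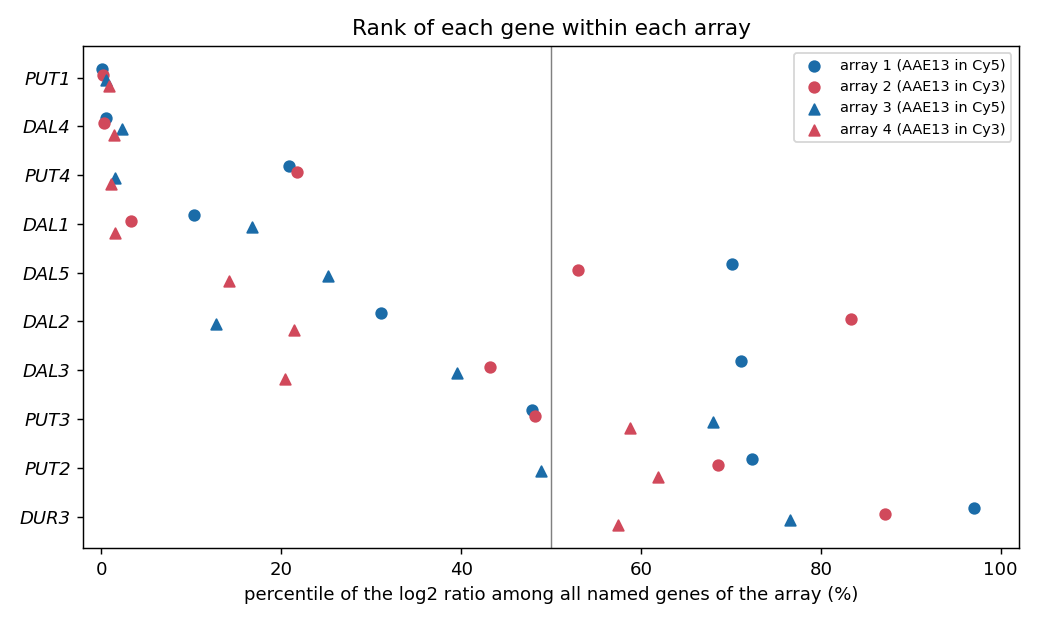
Percentile of the log2 ratio of each of the 10 genes among all named genes of the same array (horizontal axis, percent), a rank that does not depend on centring. PUT1 and DAL4 stay in the lowest few percent on every array, while DAL5, DAL2 and DAL3 spread widely between arrays.

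Ranks within an array do not depend on where the array is centred. PUT1 lay between the percentiles 0.0491 (array 1) and 0.896 (array 4) of all named genes, and DAL4 between 0.270 and 2.26. PUT4 moved from percentiles 20.9 and 21.8 on arrays 1 and 2 to 1.47 and 1.13 on arrays 3 and 4. DUR3 stood above the middle of each array, at 97.1 on array 1 and 57.4 on array 4. DAL2 ran from 12.7 on array 3 to 83.3 on array 2, the widest range of the 10 genes.

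The dye swap allows a test that the choice of the genes did not use, namely whether a gene's ratio differed between the arrays with AAE13 in Cy5 and those with AAE13 in Cy3. DAL1 had the largest such difference among the 10 genes. Its mean log2 ratio was -0.76 with AAE13 in Cy5 and -2.04 with AAE13 in Cy3, a difference of 1.29 (limma unadjusted p = 0.00653, adjusted p = 0.220 over all named genes). The other 9 genes had differences between -0.67 for DAL2 and 0.70 for DAL4, with limma adjusted p from 0.473 to 0.991. PUT1 was at -3.86 and -3.21 by orientation, and PUT4 at -1.28 and -1.58. In limma 0 of the 10 genes and 0 of the 4072 named genes, 0% of them, passed the adjusted threshold for this contrast. At an unadjusted limma p under 0.05 there were 721 genes, 17.7% of all named genes, and 1 of the 10. With 2 arrays per orientation, a missed threshold does not show that the dye had no effect, and 151 genes passed with the arrays not centred.

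**Figure D3:**
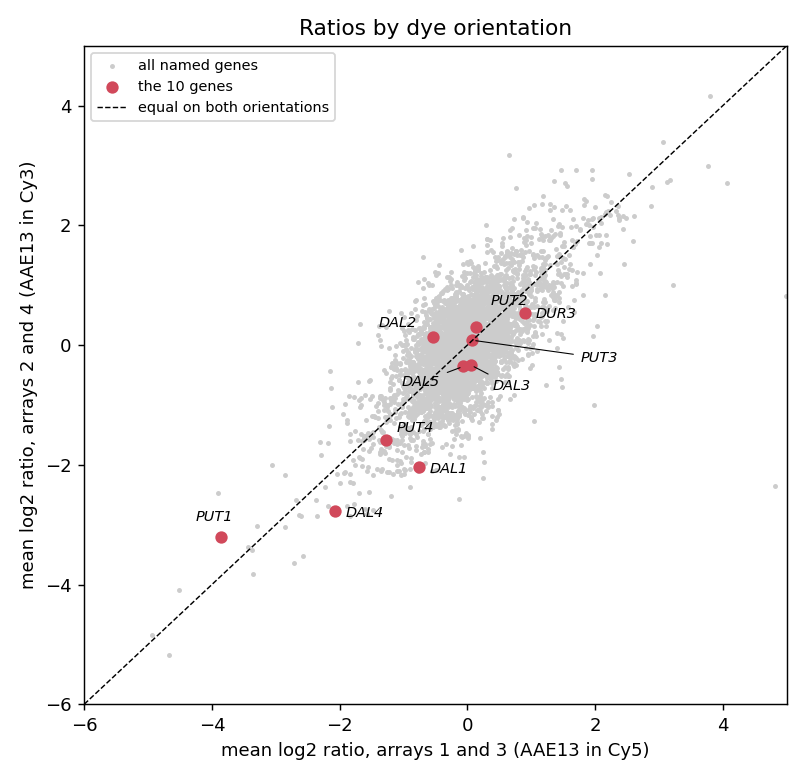
Mean log2 ratio of arrays 1 and 3, with AAE13 in Cy5 (horizontal axis), against that of arrays 2 and 4, with AAE13 in Cy3 (vertical axis), for all named genes in grey and the 10 genes in red. The dashed line marks equal ratios, and 7 of 4069 genes lie beyond the axes. DAL1 lies below the line, and PUT1, DAL4 and PUT4 lie nearer to it.

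Of the 10 genes, 4 lie in the DAL cluster of chromosome IX, where the order of the genes was taken from the R64 annotation. There DAL1 and DAL4 stand next to each other and are transcribed away from each other, so they share the stretch between their starts. Both were lower on all 4 arrays. DAL4 and DAL2 also stand next to each other, but DAL2 was below 0 on arrays 1, 3 and 4 and above 0 on array 2. Next follow DCG1, a gene of the cluster with no well-known function, and DAL7, a malate synthase gene whose product can use the glyoxylate released from allantoin. DAL7 stood on arrays 1 to 4 at log2 ratios of -0.60, -1.11, -0.75 and -1.01 and fell to a mean of -0.87 ± 0.24 (SD, n = 4; limma adjusted p = 0.0112). The call of DAL7 was lost without array 4 (-0.82, adjusted p = 0.0614) and with the arrays not centred (-0.26, adjusted p = 0.679). DAL7 has a close copy elsewhere in the genome, MLS1, which can cross-hybridise.

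DCG1 stood on arrays 1 to 4 at log2 ratios of -0.16, -0.32, -0.24 and -1.47, with a mean of -0.55 ± 0.62 (SD, n = 4; limma adjusted p = 0.143). Outside the cluster, LYS1, a lysine synthesis gene, rose to 1.48 ± 0.55 (SD, n = 4; limma adjusted p = 0.00464), and MND2, a gene of the anaphase-promoting complex, fell to -0.69 ± 0.22 (adjusted p = 0.0246). The call of LYS1 remained without each array in turn, and that of MND2 was lost without array 1 or 4, at -0.66 and -0.60 (adjusted p = 0.0955 and 0.106), and with the arrays not centred, at -0.08 (adjusted p = 0.905). YVH1, the neighbour of DAL1, had a mean of -0.69 ± 0.55 (limma adjusted p = 0.0646), and MGA2, the neighbour of DAL3, a mean of 0.43 ± 0.18 (adjusted p = 0.0912). YVH1 passed without array 3 (-0.92, adjusted p = 0.0203) and with a dye term (adjusted p = 0.0235). Within the cluster, the calls on the lower side were at DAL1, DAL4 and DAL7. DAL2 and DAL3 had means near 0 and changed sign between arrays.

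**Figure D4:**
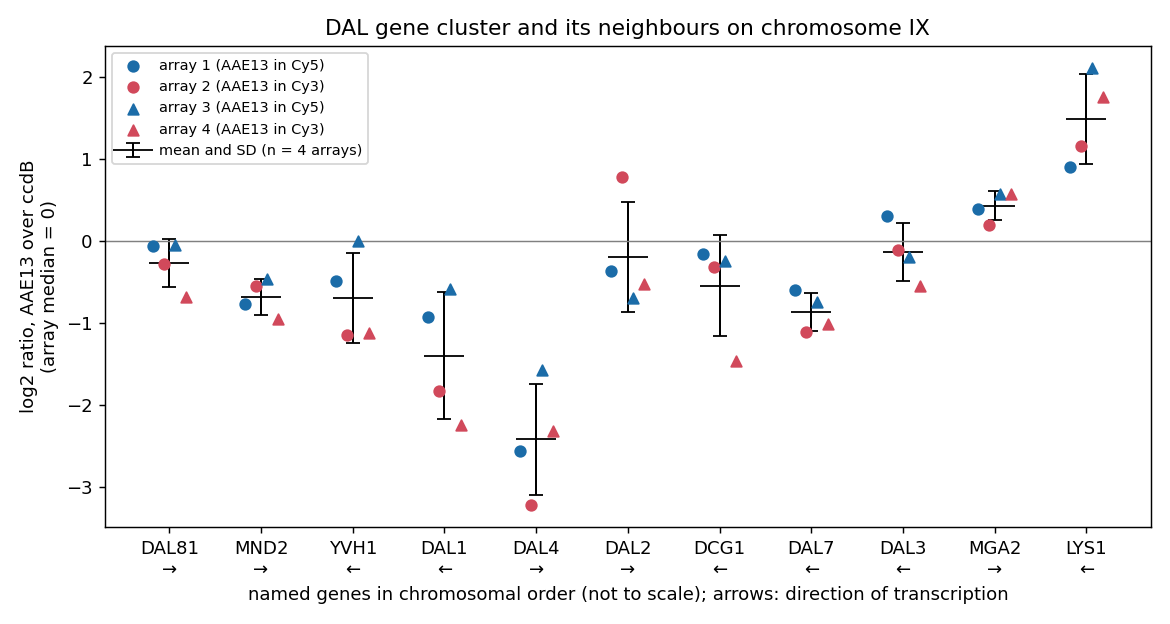
Log2 ratio of AAE13 over ccdB (vertical axis) on each array for the named genes around the DAL cluster of chromosome IX, in chromosomal order and not to scale. Arrows show the direction of transcription, colours and shapes the arrays, and black marks the mean and SD over 4 arrays. DAL4 is the lowest of the genes shown, next to DAL1, and LYS1 lies above 0 at the right.

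Further genes of nitrogen use were described from 6 lists that were also drawn up with earlier results of these arrays known. They hold 33 genes, of which 32 had a named probe and were part of limma's fit over all named genes. As the lists were drawn up with earlier results known, their calls and p-values are a description and no independent test. Of these, 4 rose, 12 fell and 16 did not pass limma's adjusted p of 0.05, beside 13.0% higher and 11.8% lower over all named genes. Their median log2 ratio was -0.55, against -0.02 over all named genes, and their means ran from -2.48 to 1.23. The urea amidolyase gene DUR1,2 was not analysed here. The calls of AGP1, DAL80, URE2, MEP1, DIP5 and GLN1 remained without each array in turn. Of the 16 calls, 13 remained with a dye term, 8 with the arrays not centred, 7 without array 4 and 5 at an adjusted p under 0.01. In an unmoderated test and with the ratios read as Cy5 over Cy3, 0 of the 16 remained, and in the latter reading 5 of the 16 kept their sign.

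The regulators differed among themselves, with 1 rising, 2 falling and 4 of 7 not passing, at a list median of 0.27. DAL80 encodes the GATA repressor of these pathways and is itself known to be under nitrogen catabolite repression. It stood on arrays 1 to 4 at log2 ratios of -1.85, -1.45, -2.74 and -2.21 and fell to a mean of -2.06 ± 0.55 (SD, n = 4; limma adjusted p = 0.00144). URE2, the gene of the cytoplasmic inhibitor of Gln3, had ratios of 0.96, 1.40, 0.86 and 1.71. It was above 0 on every array and rose to a mean of 1.23 ± 0.39 (SD, n = 4; adjusted p = 0.00496, limma).

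GZF3, the gene of the other GATA repressor, fell to a mean of -0.74 ± 0.42 (SD, n = 4; limma adjusted p = 0.0363). That call was lost without array 1, 3 or 4, at means of -0.82, -0.54 and -0.73 (adjusted p = 0.0707, 0.0970 and 0.118), and with the arrays not centred, at -0.13 (adjusted p = 0.844). The activator genes did not pass, with GLN3 at 0.63 ± 0.59 and GAT1 at 0.29 ± 0.30 (SD, n = 4). GLN3 passed on the higher side with a dye term (limma adjusted p = 0.0340) and with the arrays not centred (1.24, adjusted p = 0.0256). DAL81 and DAL82, whose products activate the allantoin genes, were at -0.27 ± 0.29 and 0.27 ± 0.13 and did not pass either.

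In the list of proline synthesis and general uptake, 1 gene rose, 3 fell and 2 of 6 did not pass, with a list median of -0.39. GAP1, the general amino acid permease gene, stood on arrays 1 to 4 at log2 ratios of -0.71, -0.78, -4.02 and -4.40. As for PUT4, arrays 3 and 4 were far lower than arrays 1 and 2, and the labels give no difference between these pairs of arrays. GAP1 fell to a mean of -2.48 ± 2.00 (SD, n = 4; limma adjusted p = 0.0312). The call was lost without array 4 (-1.84, adjusted p = 0.124) and with a dye term in the fit (adjusted p = 0.0725).

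AGP1, a broad amino acid permease gene, stood on arrays 1 to 4 at log2 ratios of -1.54, -1.37, -2.29 and -2.88. It fell to a mean of -2.02 ± 0.70 (SD, n = 4; limma adjusted p = 0.00248). GNP1, another amino acid permease gene, was at 0.09 ± 0.57 and did not pass.

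Of the proline synthesis genes, PRO2, the glutamyl phosphate reductase gene, rose to 0.96 ± 0.34 (SD, n = 4; limma adjusted p = 0.0106), and PRO3, which encodes the enzyme of the last step, fell to -0.88 ± 0.32 (adjusted p = 0.0138). PRO1, the gene of the first step, was at 0.47 ± 0.36 and did not pass. Both calls were lost without array 4, PRO2 at 0.92 (adjusted p = 0.0601) and PRO3 at -0.75 (adjusted p = 0.0711). The call of PRO3 was lost with the arrays not centred as well (-0.27, adjusted p = 0.667). The arginine breakdown genes CAR1 and CAR2, which lead to urea and to the proline pathway, were at -0.34 ± 0.70 and -0.67 ± 0.60 (SD, n = 4), and neither passed. CAR2 passed on the lower side with a dye term (limma adjusted p = 0.0249).

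**Figure D5:**
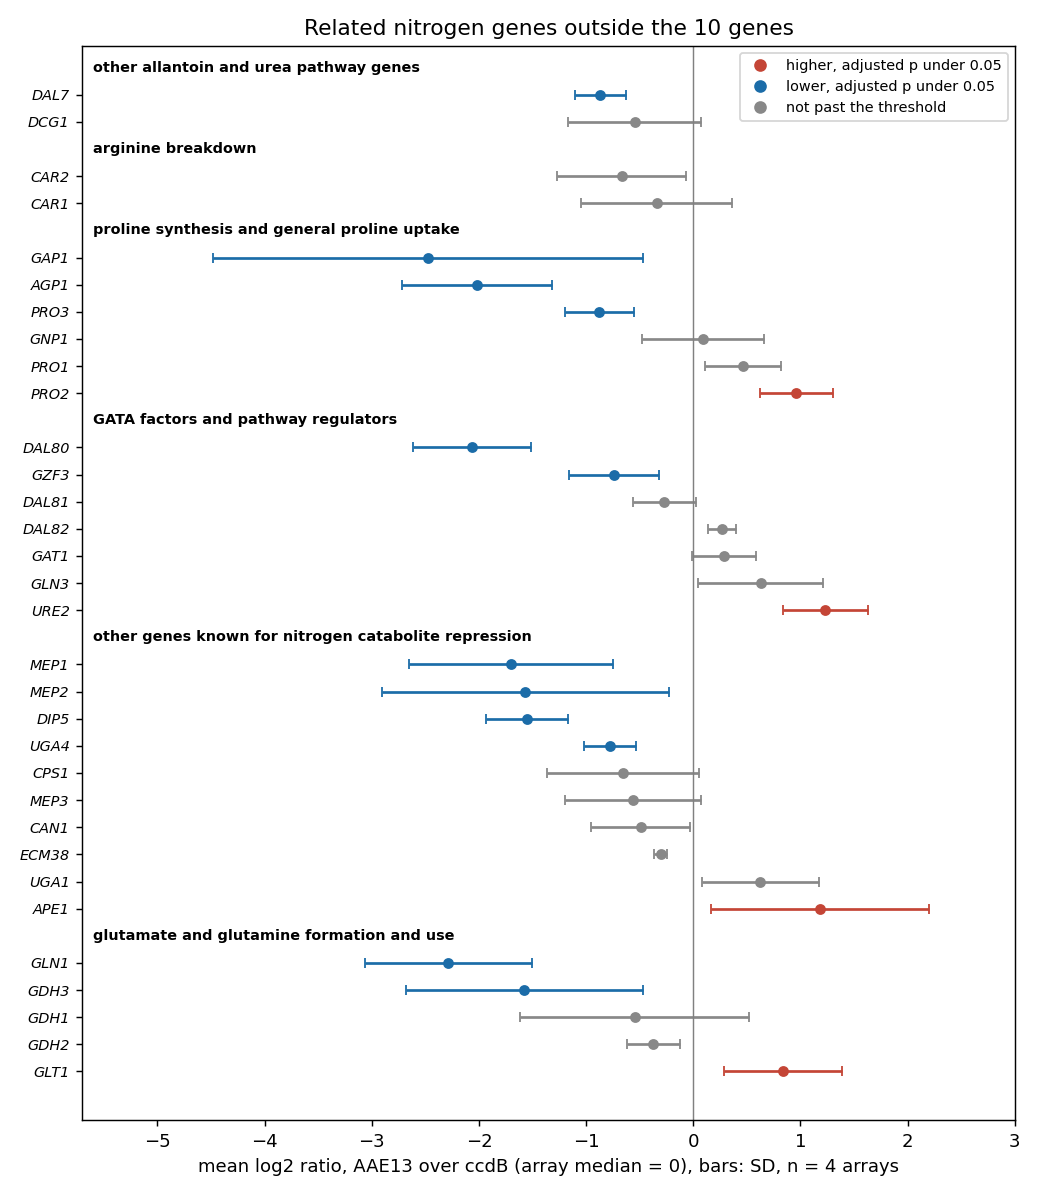
Mean log2 ratio of AAE13 over ccdB (horizontal axis, array median at 0) of 32 further genes of nitrogen use, grouped by list, with bars for the SD over 4 arrays. Blue genes were lower and red genes higher at a limma adjusted p under 0.05, and grey genes did not pass. GAP1 has the lowest mean and the widest bar, and URE2 the highest mean.

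Among 10 other genes known for nitrogen catabolite repression, 1 rose, 4 fell and 5 did not pass, with a list median of -0.61. The ammonium permease genes MEP1 and MEP2 fell. MEP1 stood on arrays 1 to 4 at log2 ratios of -0.83, -1.14, -1.84 and -2.98, with a mean of -1.70 ± 0.95 (SD, n = 4; limma adjusted p = 0.0116). MEP2 had -0.32, -0.51, -2.63 and -2.81, again lower on arrays 3 and 4, with a mean of -1.57 ± 1.34 (limma adjusted p = 0.0412). The call of MEP2 was lost without array 3 or 4, at means of -1.21 and -1.15 (adjusted p = 0.0658 and 0.161), with a dye term (0.0829) and with the arrays not centred (-0.96, adjusted p = 0.0938). That of MEP1 was lost with the arrays not centred (-1.09, adjusted p = 0.0534).

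DIP5, the gene of the glutamate and aspartate permease, fell to -1.55 ± 0.39 (SD, n = 4; limma adjusted p = 0.00209), and UGA4, the permease gene for gamma-aminobutyrate, to -0.77 ± 0.24 (adjusted p = 0.0168). Neither passed with the arrays not centred, at -0.94 and -0.17 (adjusted p = 0.0996 and 0.802), and UGA4 did not pass without array 1 or 4, at -0.65 and -0.83 (adjusted p = 0.082 and 0.0603). APE1, a vacuolar aminopeptidase gene, stood on arrays 1 to 4 at log2 ratios of 2.04, 0.03, 2.03 and 0.62 and rose to 1.18 ± 1.02 (limma adjusted p = 0.0479). The ratio of APE1 followed the dye orientation, with a mean of 2.04 with AAE13 in Cy5 and 0.32 with AAE13 in Cy3. That difference was 1.72 (limma unadjusted p = 0.00224, adjusted p = 0.220), and its cause was not tested. The call of APE1 was lost without array 1, 3 or 4, at 0.89, 0.90 and 1.37 (adjusted p = 0.154, 0.0888 and 0.0959), and with the arrays scaled to 1 spread, at 1.29 (adjusted p = 0.0514). The genes that did not pass were MEP3, UGA1, CPS1, ECM38 and CAN1, with means between -0.66 for CPS1 and 0.63 for UGA1. CPS1 passed without array 2 (-0.93, limma adjusted p = 0.0287), and UGA1 with the arrays not centred (1.23, adjusted p = 0.0259).

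Of 5 genes of glutamate and glutamine formation and use, 1 rose, 2 fell and 2 did not pass, with a list median of -0.55. GLN1, the glutamine synthetase gene, stood on arrays 1 to 4 at log2 ratios of -2.10, -1.95, -1.67 and -3.42 and fell to -2.28 ± 0.78 (SD, n = 4; limma adjusted p = 0.00210). GDH3, a glutamate dehydrogenase gene, fell to -1.57 ± 1.11 (adjusted p = 0.0236, limma), a call lost without array 4 (-1.08, adjusted p = 0.0638) and with the arrays not centred (-0.97, adjusted p = 0.091). Its close copy GDH1, which can cross-hybridise, had 0.38, 0.35, -1.24 and -1.68 and did not pass. GLT1, the glutamate synthase gene, rose to 0.84 ± 0.55 (limma adjusted p = 0.0373), and its call was lost without array 1 or 2, at 0.74 and 0.64 (adjusted p = 0.127 and 0.101), and with a dye term (0.058). GDH2, whose product releases ammonia from glutamate, was at -0.37 ± 0.24 and did not pass.

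Over the 4 arrays, the named genes outside the 10 whose ratios lay nearest to those of PUT1 came from other pathways. The measure was the root mean square difference of the log2 ratios, over 4068 genes measured on all arrays. SSA3, a stress-inducible Hsp70 gene, lay nearest at 0.48, followed by PHO84, a phosphate transporter gene, at 0.68. TIS11, REG2 and the oligopeptide transporter gene OPT2 followed at 0.93, 0.93 and 1.03. Among the 10 genes themselves, DAL4 lay nearest to PUT1, at 1.32 and rank 13 of all genes, and PUT2 lay at 3.83. This likeness rests on 4 arrays that share their cultures for all genes, and is a description.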

How the data were processed

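Transcript levels were measured on 4 two-colour arrays, each with 1 AAE13 and 1 ccdB culture. The authors deposited log2 ratios for 6256 probes, with 4 missing values. No source used here gives the base, direction or normalization of the ratios, and array medians were 0.431, 0.765, -0.174 and 1.41. The platform annotation named 1 gene for 4075 probes, and 125 older symbols were updated through R64. Each array was centred on its median and probes of a gene were averaged, which left 4072 genes measured on at least 3 arrays. Ratios were tested against 0, and between dye orientations, in limma 3.58.1 under R 4.3.3. Tests were two-sided, p-values were adjusted over all named genes by Benjamini-Hochberg, and the threshold was 0.05. The code was tested on simulated data. Each p-value sets a mean or difference of ratios against the spread between these arrays, with variances moderated over all named genes. SD values are over arrays. Figures used Python 3.11.15 and matplotlib 3.10.9. The genes named were the 10 members, all genes of the 6 lists, and the 5 genes nearest to PUT1; neighbours of the DAL cluster were added later. The members and lists were chosen with earlier results of these data known. A planned search of promoter sequences was not run.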

Additional observations from a re-analysis of the deposited data

Results flagged for a closer look

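Of 51 named genes with values on all 4 arrays, 1 had an array far from the other 3. DCG1, in the DAL cluster, was at -1.47 on array 4, with a gap to the nearest array of 0.878 of its range, past the 95% limit of Dixon's test. Chance alone takes about 1 in 20 genes past that limit. None of the 10 proline, allantoin and urea genes passed it.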

How the results depend on the processing

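Read as Cy5 over Cy3, limma called 0 of all named genes (154 at an unadjusted p under 0.05) and 0 of the 10 genes, whose median was 0.15, and PUT1 was at -0.33. PUT4, DAL1 and DAL4 were then at 0.15, 0.64 and 0.35, PUT2 and PUT3 at -0.09 and -0.0028, and DAL3 and DAL5 at 0.19 and 0.15, all on the other side of 0. With the arrays not centred the median of the 10 genes was 0.40, against 0.58 over all named genes. In that setting 799 genes were called (744 higher, 55 lower, against 529 and 482 with centring). Of the 10, PUT1 and DAL4 were then called lower and DUR3 higher. The dye orientation contrast without centring called 151 genes, 2 higher and 149 lower with AAE13 in Cy5. An unmoderated test called 143 genes, 0 of the 10, and 1 gene for dye orientation. At an adjusted p under 0.01, 390 genes and 2 of the 10 were called, PUT1 and DAL4. Leaving out each array in turn called 427 to 1045 genes and 2 to 4 of the 10, the lowest without array 4, and 621 genes without array 1. A dye term called 1276 genes and 3 of the 10, PUT1, DAL1 and DAL4, with PUT4 lost. Arrays weighted in limma called 1048 genes and 5 of the 10. DAL2, DAL3 and DAL5 crossed 0 with the arrays not centred, at 0.41, 0.47 and 0.40, and DAL3 without array 4, at 0.0014. The cause of these changes was not tested. Each ratio already pairs 1 culture of each strain, so no further pairing was fitted. Signal over background is unknown.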
